A study of Homo sapiens with 16 samples.

Results

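The 9 genes described here encode secreted proteins that recruit or activate immune cells. They comprise 5 chemokines (*CXCL8*, *CXCL1*, *CXCL2*, *CXCL3* and *CCL2*), 3 cytokines of the interleukin 6 type (*IL6*, *IL11* and *LIF*) and the colony-stimulating factor gene *CSF2*. They were chosen by name, and their Entrez identifiers were looked up in the gene tables of both experiments. Of the 9 genes, 8 were listed in both tables, which held 13559 and 14024 genes, with 14108 genes in either. *CXCL2* was listed in neither table, so no value is given for it.

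Chemokines of the CXCL8 type (CXCL8 is also named interleukin 8) attract mainly neutrophils through the receptors CXCR1 and CXCR2, whereas CCL2 attracts monocytes through CCR2. IL6, IL11 and LIF each bind a receptor chain of their own and signal through the shared chain gp130 (*IL6ST*) and the JAK kinases to STAT3, and GM-CSF, the product of *CSF2*, supports the survival and differentiation of myeloid cells. Genes of this kind are typically transcribed under NF-kB and AP-1, and their mRNAs often carry AU-rich elements whose decay is slowed by p38 and its substrate kinase MK2. In glioblastoma, several of them are produced by the tumor cells themselves and are known for drawing myeloid cells into the tumor.

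RNA was sequenced from LN229, an established human glioblastoma cell line, in 16 libraries that form 8 groups of 2. Experiment 1 held 2 groups without compound, the regular culture (complete medium with 10% fetal bovine serum) and the ischemic culture (2 mM glucose, 0.1 mM glutamine, 1% serum and 1% oxygen, as the methods describe the condition). Experiment 2 held 6 groups, in which cells of each culture received DMSO (the vehicle), VX745 (an inhibitor of p38α) or MK25 (an inhibitor of MK2). The methods name 2 µM VX745 and 10 µM MK25 as working concentrations, while the RNA labels give no concentration and no time of exposure. The ischemic culture combined low glucose, low glutamine, low serum and low oxygen, so their separate effects cannot be told apart. All groups came from this line alone, the labels name no genetic change in any of them, and the labels do not say that the libraries of a group came from separate cultures. The methods speak in general terms of independent experiments for cell culture data, without naming the RNA libraries. The p-values measure the spread between these libraries, which may be technical.

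Values are log2 normalized CPM (read counts scaled to library size and then between libraries), used as the authors deposited them, and a log2 difference of 1 is a change by a factor of 2. Between 20122017 and 37562668 reads per library lay on the listed genes. The deposited values fell on whole reads in 100% of cases, which gave the reads behind each value, and 3 reads were set as the detection floor. This floor covers counting error only. Of 8 marker genes of the line, 7 were listed, with *VIM*, *CD44*, *NES* and *FN1* at 7592 reads or more in every library and the astroglial marker *GFAP* at 21 to 55 reads. Of 6 leukocyte and microglia markers, *PTPRC*, *AIF1* and *CD3E* had no row in either table, *CSF1R* had one in experiment 2 (12 to 44 reads), *ITGAM* had 4 to 119 reads and *CD68* 546 to 2093 reads. The summed level of these markers was 24.1 to 25.4 CPM in regular and 35.7 to 39.6 in ischemic libraries of experiment 1, and 32.4 to 42.4 and 55.6 to 65.4 in experiment 2. The part of this difference in the results below was not tested. Among the leukocyte markers *CD68*, which held most of their reads, was higher under ischemia by 0.77 in untreated and 0.94 in DMSO cells. Both differences were under 2-fold (adjusted p = 1.23e-05 and 2.60e-09). *ITGAM*, with 4 and 7 regular reads in experiment 1, rose by 1.11 in untreated (adjusted p = 0.0434) and 1.36 in DMSO cells. In ischemic culture *ITGAM* rose by 1.33 with MK25, while VX745 moved 0 of 3 by limma and voom, with 0 at an unadjusted p under 0.05. Of the 7 line markers 1 rose and 3 fell in untreated and 1 rose and 2 fell in DMSO cells under ischemia. Among them *SOX2* fell by 3.11 and 2.23. By the call rules given below, 11.3% of all genes rose and 9.1% fell in untreated cells, and 9.03% and 8.11% in DMSO cells. In ischemic culture VX745 raised 1 line marker and MK25 moved 0 by limma and voom, with 5 at an unadjusted p under 0.05. Over all genes VX745 raised 4.35% and lowered 0.906% there, and MK25 raised 7.02% and lowered 2.65%. Of 3 endothelial markers 0 had a row.

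The promoters of *CXCL8*, *CXCL1*, *CXCL3* and *CSF2* are shown because the genes responded differently while sharing, or lacking, the same short motifs. The sequences are the 250 bases upstream of the start in RefSeq (GRCh38.p14), read 5′ to 3′ on the strand of the gene. Promoters were found for 7 of the 9 genes. Those of *CCL2* and *LIF* were not found, so their motifs were not searched. *CXCL8* (chr4:73740319-73740568, plus strand), *CXCL1* (chr4:73869143-73869392, plus strand) and *CXCL3* (chr4:74038690-74038939, minus strand) lie in the chemokine cluster of chromosome 4, and *CSF2* (chr5:132073539-132073788, plus strand) lies on chromosome 5. Capitals mark the NF-kB words and the AP-1 word that were searched.
CXCL8: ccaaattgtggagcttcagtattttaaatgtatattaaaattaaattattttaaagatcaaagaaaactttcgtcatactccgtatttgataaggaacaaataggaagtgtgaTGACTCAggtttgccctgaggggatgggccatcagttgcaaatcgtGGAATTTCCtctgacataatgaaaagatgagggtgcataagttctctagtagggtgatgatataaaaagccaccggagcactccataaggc
CXCL1: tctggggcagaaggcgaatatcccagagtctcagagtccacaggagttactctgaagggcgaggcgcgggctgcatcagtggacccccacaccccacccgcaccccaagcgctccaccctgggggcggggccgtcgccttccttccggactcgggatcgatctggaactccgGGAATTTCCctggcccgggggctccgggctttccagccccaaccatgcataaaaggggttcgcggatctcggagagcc
CXCL3: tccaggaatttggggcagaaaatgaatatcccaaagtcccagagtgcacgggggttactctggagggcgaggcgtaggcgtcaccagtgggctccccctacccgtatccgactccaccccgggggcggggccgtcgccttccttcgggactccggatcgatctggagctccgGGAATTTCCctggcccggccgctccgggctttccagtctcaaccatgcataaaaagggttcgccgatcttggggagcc
CSF2: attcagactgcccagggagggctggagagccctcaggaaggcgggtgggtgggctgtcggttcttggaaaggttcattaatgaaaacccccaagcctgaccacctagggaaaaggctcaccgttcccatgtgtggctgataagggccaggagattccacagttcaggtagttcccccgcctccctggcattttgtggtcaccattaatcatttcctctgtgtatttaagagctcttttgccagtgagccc
An NF-kB word (GGAATTTCC, GGATTTTCC or GGACTTTCC, on either strand) occurred in 1.034% of 35116 RefSeq promoters of this length. It was found in *CXCL8* (91 bases before the start), *CXCL1* and *CXCL3* (78 bases), *CXCL2* (77 bases) and *IL6* (72 bases), and these letters were not in the window of *CSF2* or *IL11*. The AP-1 word TGACTCA, on either strand, occurred in 4.203% of promoters and was found in *CXCL8* (137 bases before the start) and *IL11* (96 bases). A hypoxia response word (ACGTG or GCGTG) was common, in 43.205% of promoters, and among the 7 it was found in *IL11*. The promoters of *CXCL1* and *CXCL3* were 81.4% identical over the aligned columns, whereas those of *CXCL8* and *CXCL1* were 44.33% identical. These matches describe the letters in the window and not binding.

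The AU-rich stretch of the 3′ UTR is shown for 5 genes because p38 and MK2 are known to act on such elements. Each line gives 25 bases around an UUAUUUAUU nonamer (capitals) in the canonical GENCODE transcript, written 5′ to 3′ as RNA.
CXCL8: guaaaguaUUAUUUAUUugaaucua
CXCL1: ucuucuauUUAUUUAUUuauucauu
IL11: gccagaucUUAUUUAUUuauuuauu
LIF: ccgggcccUUAUUUAUUauuuaaac
CSF2: uaaaauauUUAUUUAUUuauuuauu
The nonamer was present in 7 of the 9 genes and in 8.44% of 19550 canonical transcripts with a 3′ UTR. *CCL2* and *IL6* lacked it. *IL11* held 6 nonamers, *CXCL1* and *CSF2* held 3, *LIF* held 2 and *CXCL8* and *CXCL3* held 1. Counted as AUUUA pentamers, *CSF2* was the densest with 8 in 318 bases (25.2 per kb), followed by *IL6* (14.1 per kb) and *CXCL2* (13.97 per kb), while *LIF* (2.19 per kb) and *CCL2* (2.66 per kb) lay closest to the median of all transcripts, 1.5 per kb.

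Levels were compared between genes as log2 normalized CPM per kb of the canonical transcript. In untreated regular culture, *LIF* (5.57 ± 0.07, SD, n = 2) and *CXCL1* (5.33 ± 0.01) stood highest, and *CXCL8* (3.97 ± 0.07) came after *CCL2* (4.76) and *IL11* (4.17). In untreated ischemic culture, *CXCL8* led with 8.37 ± 0.15, followed by *LIF* at 5.58 ± 0.07. *CXCL3*, *IL6* and *CSF2* were the 3 lowest in both untreated groups. In experiment 2 the order was *CXCL1*, *LIF*, *CCL2* in regular DMSO (6.91, 6.49 and 5.68 per kb) and *CXCL8*, *LIF*, *CXCL1* in ischemic DMSO (8.14, 6.51 and 5.46 per kb). The place of *CCL2* depended on the length used. Per kb of all annotated exons, *CCL2* (4.29) came after *IL11* (4.95) and *CXCL8* (4.85) in regular DMSO. By that length it also came after *IL11* in untreated regular culture (3.37 against 4.00). Some neighbours in the ischemic DMSO order lay within 1 SD of each other, namely *CXCL1* and *IL11*, *CCL2* and *CSF2*, and *CSF2* and *CXCL3*. The tables of the experiments were normalized separately, so levels were tested within an experiment.

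**Figure D1:**
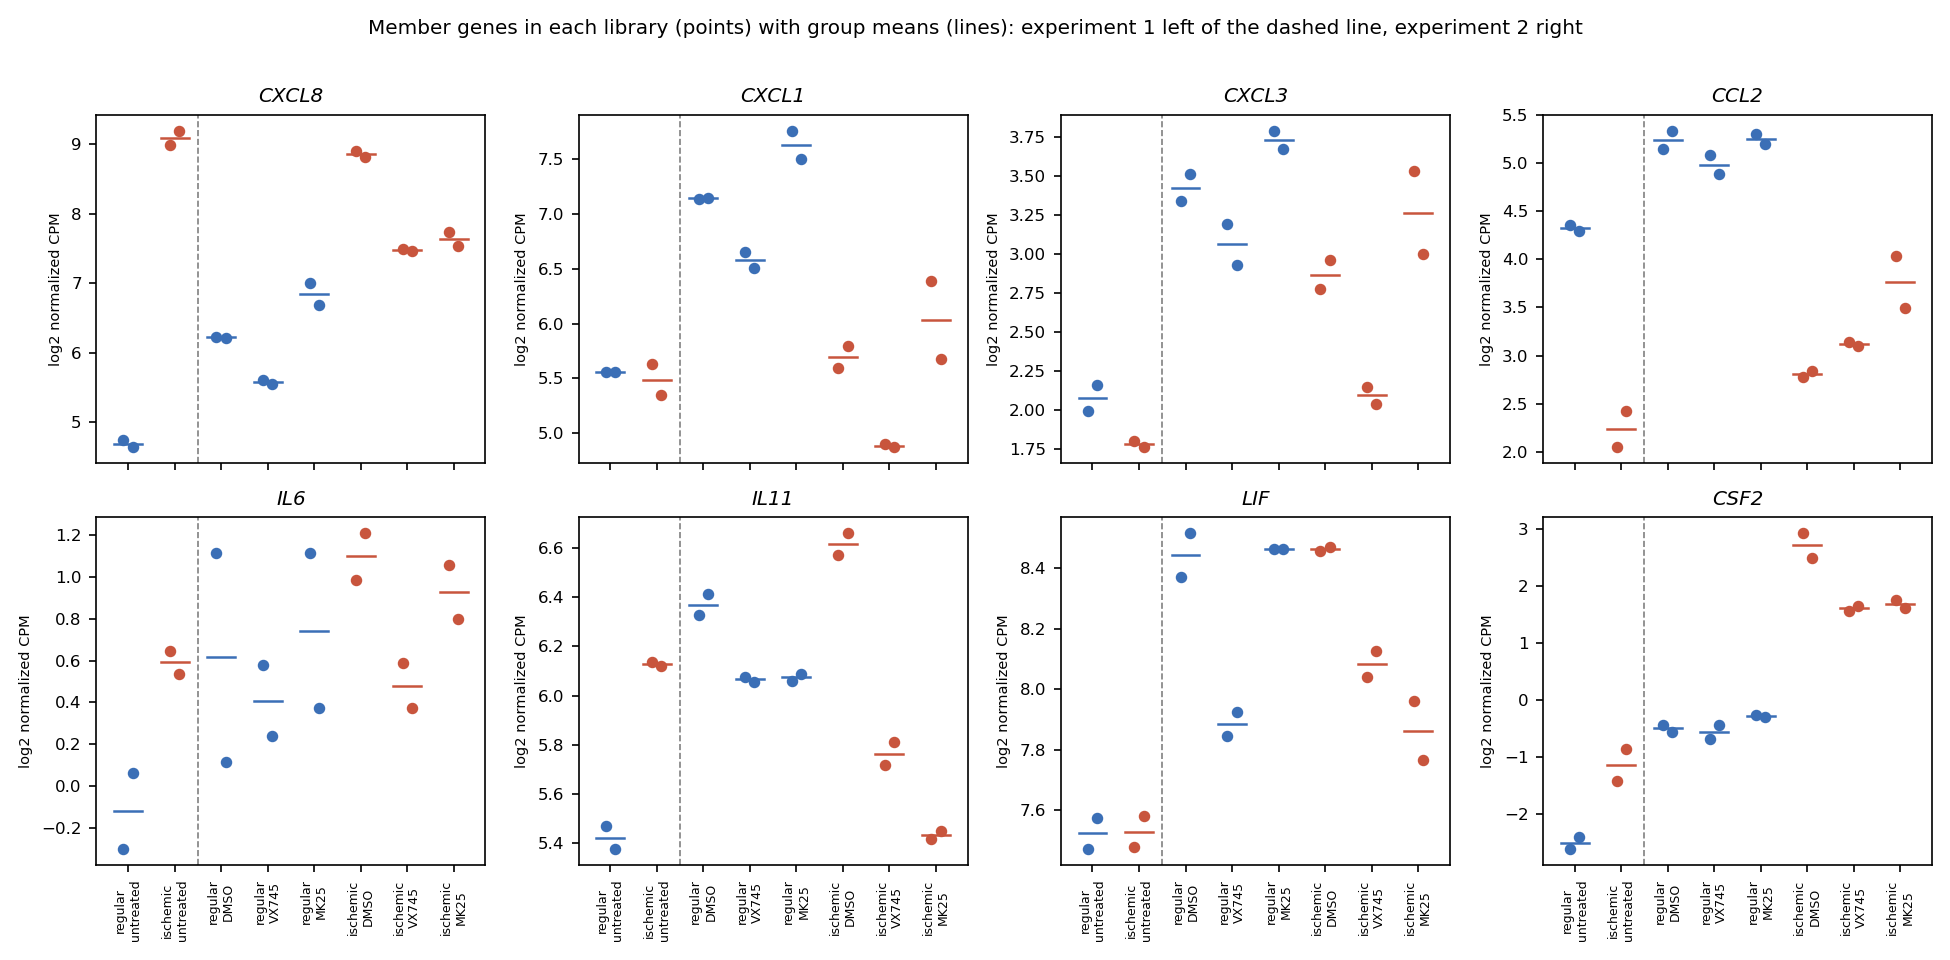
Log2 normalized CPM (y axes, a scale for each gene) of the 8 listed genes in each library (points, 2 per group) with group means (lines), by group on the x axes, blue for regular and red for ischemic culture. *CXCL8* sat at 4.73 and 4.64 in regular and 8.98 and 9.20 in ischemic libraries of experiment 1, and the *IL6* libraries of regular DMSO at 1.12 and 0.12.

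The first comparison asked how the ischemic culture changed the genes. *CXCL8* and *CSF2* rose and *CCL2* fell in both experiments, *CXCL1* fell in experiment 2 but not in experiment 1, and *LIF* was called in neither. In untreated cells 2 of the 8 genes were called higher and 1 lower. A call here needed a 2-fold change or more with an adjusted p below 0.05, a rule that called 11.3% of all genes higher and 9.1% lower. In DMSO cells 2 were called higher and 2 lower, against 9.03% and 8.11% of all genes. The median log2 change of the 8 genes was 0.355 in untreated and 0.132 in DMSO cells, beside -0.009 and -0.007 over all genes.

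*CXCL8* (identifier 3576, chr4:73740569-73743716), the neutrophil chemokine, had 655 and 697 reads in the regular and 13965 and 12415 reads in the ischemic libraries of experiment 1. As log2 values these were 4.73 and 4.64 against 8.98 and 9.20. Each ischemic library lay far above both regular ones. The ischemic mean exceeded the regular one by 4.40 (0.08 standard error, adjusted p = 7.65e-13), a 21.1-fold rise. With DMSO the regular libraries held 6.23 and 6.21 and the ischemic ones 8.91 and 8.81. The rise was 2.64 (0.08 standard error, adjusted p = 1.66e-14), or 6.22-fold. The regular level was lower in untreated cells than with DMSO, a difference between separately normalized tables that was not tested. In bulk RNA, a smaller share of cells expressing a gene and less RNA per cell cannot be told apart.

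*CXCL1* (chr4:73869393-73871308), which acts on the same receptors, did not pass the test in untreated cells. It had 5.56 and 5.55 in regular and 5.63 and 5.34 in ischemic libraries, so the groups overlapped, and the interval of the log2 difference was -0.28 to 0.14 (adjusted p = 0.528). With DMSO it was 7.14 and 7.14 in regular and 5.60 and 5.80 in ischemic libraries. Both ischemic libraries were lower, and *CXCL1* fell by 1.44 (0.15 standard error, adjusted p = 1.11e-07), or 2.72-fold. Its paralog *CXCL3* (chr4:74036589-74038689) was at 3.34 and 3.51 in regular and 2.77 and 2.96 in ischemic DMSO libraries. The groups did not overlap, and the difference of -0.56 (adjusted p = 0.00356) stayed under 2-fold. In experiment 1 the *CXCL3* difference was -0.29, with an interval of -0.67 to 0.09.

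*CCL2* (chr17:34255285-34257203), the monocyte chemokine, moved opposite to *CXCL8*. In experiment 1 it was at 4.36 and 4.29 in regular (504 to 548 reads) and 2.05 and 2.43 in ischemic libraries (112 reads in each). With DMSO it was at 5.15 and 5.34 in regular and 2.78 and 2.84 in ischemic libraries. The ischemic libraries were the lower ones in both experiments without overlap. *CCL2* fell by 2.09 (0.14 standard error, adjusted p = 7.29e-08) in untreated and by 2.44 (0.13 standard error, adjusted p = 2.48e-11) in DMSO cells, which is 4.25-fold and 5.42-fold lower.

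Among the cytokines of the interleukin 6 type, none reached a 2-fold change in either experiment. *IL6* (chr7:22727200-22731998), the founding member of the family, was weakly detected, with 18 to 74 reads in all 16 libraries. Its log2 values were -0.30 and 0.06 in regular and 0.65 and 0.54 in ischemic untreated libraries, and 1.12 and 0.12 in regular and 0.99 and 1.21 in ischemic DMSO libraries. The DMSO groups overlapped, with 66 and 25 reads in the regular libraries. The differences were 0.71 (adjusted p = 0.0428) and 0.48 (adjusted p = 0.183, interval -0.18 to 1.15). The DMSO value rested on single libraries, with 0.985 without regular DMSO replicate 1 (adjusted p = 0.0152, under 2-fold) and -0.017 without regular DMSO replicate 2 (adjusted p = 0.966).

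*IL11* (chr19:55364382-55370463), a gp130 cytokine known for its part in fibrosis and stromal signaling, was at 5.47 and 5.38 in regular and 6.13 and 6.12 in ischemic untreated libraries. The ischemic libraries were higher without overlap, by 0.70 (0.07 standard error, adjusted p = 3.75e-06), a 1.63-fold difference. With DMSO, regular libraries held 6.33 and 6.41 and ischemic ones 6.57 and 6.66, a difference of 0.25 (adjusted p = 0.00153). *LIF* (chr22:30240453-30246759), known for keeping stem cells undifferentiated, was at 7.47 and 7.58 in regular and 7.48 and 7.58 in ischemic untreated libraries and at 8.37 and 8.52 and 8.46 and 8.47 with DMSO. Its groups overlapped in both experiments. The intervals of its log2 difference were -0.15 to 0.16 and -0.12 to 0.16. After quantile normalization the differences were -0.137 and -0.262 (adjusted p = 0.0893 and 0.00172), under 2-fold.

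*CSF2* (chr5:132073789-132076170) had 2 and 3 reads in the regular libraries of experiment 1, both at the floor, and 8 and 10 in the ischemic ones. Summed over libraries these are 5 and 18 reads, a depth-corrected ratio of 3.89 with a 95% counting interval of 1.39 to 13.4. The fitted log2 difference of 1.37 (0.54 standard error, adjusted p = 0.0388) passed the test, but the call was lost after quantile normalization (adjusted p = 0.341) and without ischemic replicate 2, regular replicate 1 or regular replicate 2 (adjusted p = 0.249, 0.116 and 0.0753). In experiment 2, where it was better detected, *CSF2* had 21 and 15 reads (-0.44 and -0.56) in regular and 186 and 164 reads (2.93 and 2.50) in ischemic DMSO libraries. The ischemic libraries were far higher without overlap. The rise was 3.21 (0.23 standard error, adjusted p = 1.29e-09), or 9.28-fold, the largest rise among the 8 genes in DMSO cells.

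**Figure D2:**
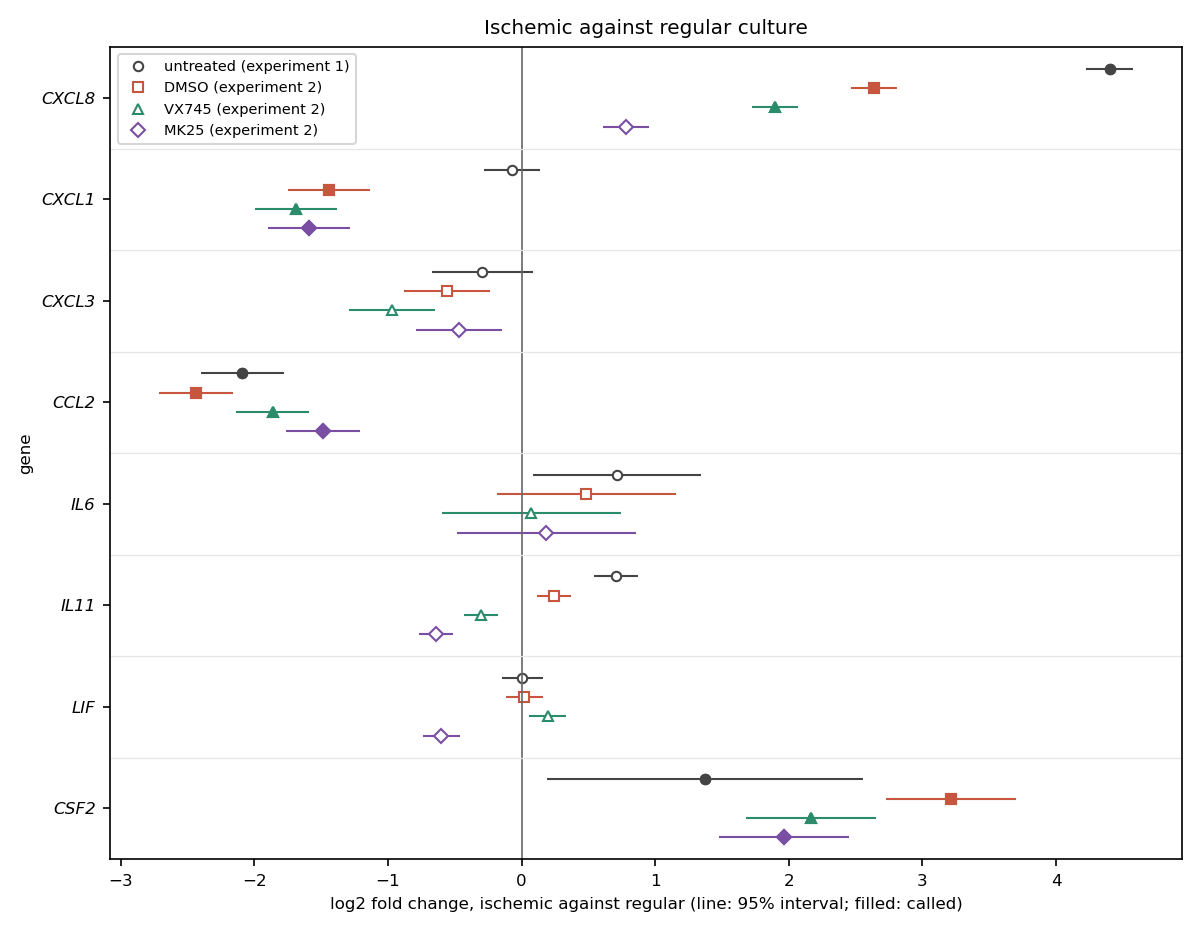
Log2 fold change of ischemic against regular culture (x axis) for each gene (y axis) in untreated, DMSO, VX745 and MK25 cells, with 95% intervals as lines and filled symbols for differences that passed both thresholds. *CXCL8* stood at 4.40, 2.64, 1.90 and 0.78 in this order, and *CCL2* lay below 0 in all 4.

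The next comparison asked which genes changed with the p38 inhibitor or the MK2 inhibitor under ischemia. With either inhibitor, *CXCL8*, *IL11* and *CSF2* fell. *CXCL1* and *CXCL3* fell with VX745 but not with MK25, *LIF* fell by at least 1.5-fold with MK25, and *CCL2* rose with MK25. VX745 lowered 5 of the 8 genes and raised 0. Here a call needed a 1.5-fold change or more with an adjusted p below 0.05, and this rule called 0.906% of all genes lower and 4.35% higher. In the same limma fit 6 of the 8 genes had an adjusted p under 0.05 at any fold, 7 had an unadjusted p under 0.05, and the voom fit on reads also called 5. MK25 lowered 4 and raised 1, while it called 2.65% of all genes lower and 7.02% higher. The medians of the 8 genes were -0.79 for VX745 and -0.386 for MK25, beside 0.003 and -0.001 over all genes. Both comparisons share the ischemic DMSO libraries.

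*CXCL8* dropped from 8.91 and 8.81 in ischemic DMSO libraries to 7.49 and 7.46 with VX745 and 7.73 and 7.53 with MK25. All inhibitor libraries lay below both DMSO libraries and above every regular library of experiment 2. It fell by 1.39 (0.08 standard error, adjusted p = 1.41e-08) with VX745 and by 1.23 (0.08 standard error, adjusted p = 9.38e-09) with MK25, or 2.61-fold and 2.34-fold. The inhibitors did not differ by the test, with an interval of -0.02 to 0.33 for MK25 against VX745.

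*CXCL1* was at 5.60 and 5.80 with DMSO, 4.90 and 4.88 with VX745 and 6.39 and 5.68 with MK25. Both VX745 libraries lay below the DMSO libraries, and the MK25 libraries were spread, with 3085 and 1807 reads. *CXCL1* fell by 0.81 (0.15 standard error, adjusted p = 6.47e-04) with VX745, whereas the MK25 difference was 0.34 (adjusted p = 0.0727, interval 0.03 to 0.65). *CXCL3* followed the same order, at 2.77 and 2.96 with DMSO, 2.15 and 2.04 with VX745 and 3.53 and 2.996 with MK25. It fell by 0.77 (0.15 standard error, adjusted p = 0.00132) with VX745, and its MK25 difference of 0.40 (adjusted p = 0.0447) stayed under 1.5-fold. Without ischemic MK25 replicate 2, the MK25 differences were 0.69 for *CXCL1* and 0.67 for *CXCL3*, both called (adjusted p = 1.325e-04 and 0.00431). Tested directly, MK25 stood above VX745 by 1.15 for *CXCL1* (adjusted p = 2.31e-05) and by 1.17 for *CXCL3* (adjusted p = 2.91e-05).

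*CCL2* was at 2.78 and 2.84 with DMSO, 3.14 and 3.10 with VX745 and 4.03 and 3.49 with MK25 in ischemic culture. Every inhibitor library was above both DMSO libraries, and none reached the regular DMSO values of 5.15 and 5.34. The rise with MK25 was 0.95 (0.13 standard error, adjusted p = 2.41e-05), or 1.94-fold, and the VX745 difference was 0.31 (adjusted p = 0.0825, interval 0.04 to 0.59). MK25 stood above VX745 by 0.64 (adjusted p = 0.00202), which fell to 0.37 (adjusted p = 0.0498) without ischemic MK25 replicate 1 and then was no longer called.

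*IL11* went from 6.57 and 6.66 with DMSO to 5.72 and 5.81 with VX745 and 5.42 and 5.45 with MK25. These 3 ischemic groups did not overlap, and the MK25 libraries were the lowest of the 12 libraries of experiment 2. *IL11* fell by 0.85 (0.06 standard error, adjusted p = 6.43e-08) and by 1.18 (0.06 standard error, adjusted p = 3.81e-10), and MK25 differed from VX745 by -0.33 (adjusted p = 8.37e-04), under 1.5-fold. *LIF* went from 8.46 and 8.47 with DMSO to 8.04 and 8.13 with VX745 and 7.96 and 7.77 with MK25. Its inhibitor libraries all lay below the DMSO libraries. *LIF* fell by 0.60 (0.07 standard error, adjusted p = 2.42e-06) with MK25, just past the 1.5-fold threshold, with -0.42 after quantile normalization and -0.50 without ischemic MK25 replicate 2, both under it. The VX745 difference was -0.38 (adjusted p = 4.64e-04) and stayed under 1.5-fold. *IL6* levels were 0.59 and 0.37 in the VX745 group and 1.06 and 0.80 in the MK25 group, and the intervals of its differences from DMSO were -1.29 to 0.05 and -0.84 to 0.50. The VX745 difference of -0.62 was called in the fit of the groups compared alone (adjusted p = 0.0479).

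*CSF2* had 95 reads in each ischemic VX745 library (1.57 and 1.65) and 122 and 105 in the ischemic MK25 libraries (1.76 and 1.61), against 2.93 and 2.50 with DMSO. All inhibitor libraries lay below the DMSO libraries and above every regular library. *CSF2* fell by 1.11 (0.23 standard error, adjusted p = 0.00194) with VX745 and by 1.03 (0.23 standard error, adjusted p = 0.0018) with MK25. The direct comparison of MK25 with VX745 gave 0.07 with an interval of -0.41 to 0.56. Over all 8 genes, MK25 was higher than VX745 for 3 (*CXCL1*, *CXCL3* and *CCL2*) and lower for 0 at the 1.5-fold rule of limma, which called 1.75% of all genes higher and 2.2% lower. In this comparison 5 genes had an unadjusted p under 0.05, and voom called 3. At any fold 5 genes passed, the other two being *IL11* and *LIF*, which were lower with MK25. The working concentrations of the compounds differ, so these are differences between treatments.

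**Figure D3:**
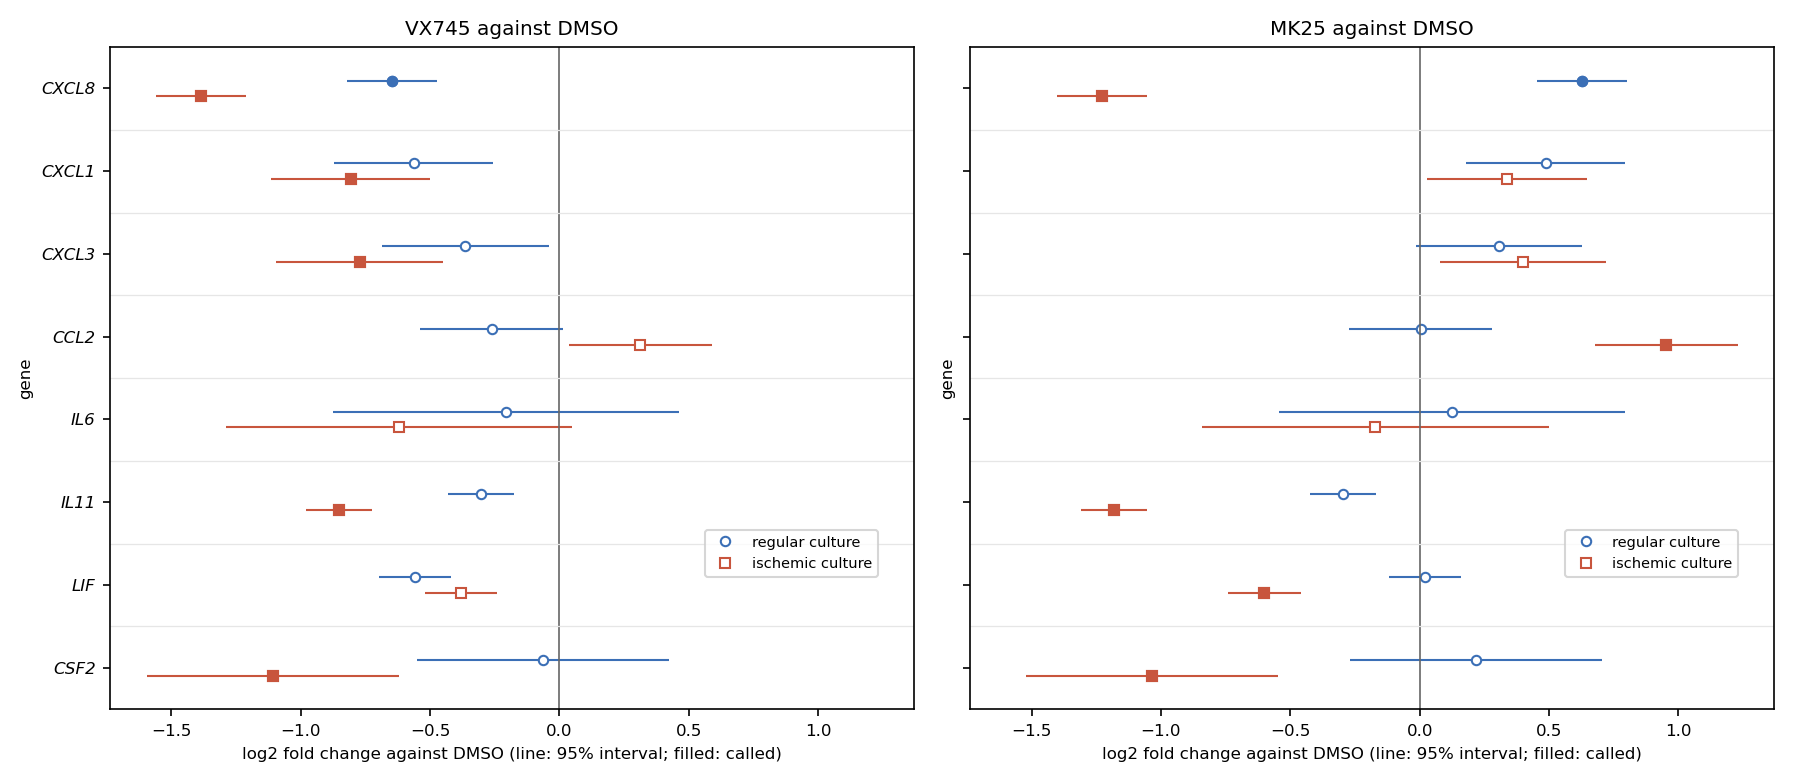
Log2 fold change against DMSO (x axes) of each gene (y axes) for VX745 (left) and MK25 (right), in regular (blue circles) and ischemic culture (red squares), with 95% intervals as lines and filled symbols for differences that passed both thresholds. With MK25, *CXCL8* stood at 0.63 in regular and -1.23 in ischemic culture.

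In regular culture the same inhibitors moved 1 gene each past the thresholds, and this was *CXCL8* in opposite directions. VX745 lowered 1 of 8 genes, a rule that called 0.0357% of all genes lower and 0.0642% higher, and MK25 raised 1 of 8, with 1.88% of all genes higher and 0.606% lower. *CXCL8* was at 6.23 and 6.21 with DMSO, 5.61 and 5.54 with VX745 and 7.004 and 6.69 with MK25, and the 3 groups did not overlap. It fell by 0.65 (0.08 standard error, adjusted p = 0.00112) with VX745 and rose by 0.63 (0.08 standard error, adjusted p = 6.83e-05) with MK25. The VX745 call was lost in a fit without a trend of the variance (adjusted p = 0.142), and the MK25 difference was 0.47 without regular MK25 replicate 1, under 1.5-fold.

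Further differences had an adjusted p under 0.05 in regular culture but stayed under 1.5-fold. *LIF* was at 7.85 and 7.92 with VX745 and 8.46 and 8.46 with MK25, against 8.37 and 8.52 with DMSO, so the VX745 libraries were low and the MK25 libraries lay within the DMSO range. The VX745 difference was -0.56 (adjusted p = 5.71e-04), and the call was gained without regular VX745 replicate 2 or regular DMSO replicate 1 (-0.60 and -0.63). The *IL11* differences from DMSO were -0.30 with VX745 (adjusted p = 0.0396) and -0.29 with MK25 (adjusted p = 0.00367), at levels of 6.08 and 6.06 and 6.06 and 6.09. *CXCL1* was at 6.65 and 6.50 with VX745 and 7.76 and 7.496 with MK25. Its MK25 difference was 0.49 (adjusted p = 0.0364), called without regular MK25 replicate 2 (0.62), and its VX745 difference was -0.56 (adjusted p = 0.109, interval -0.87 to -0.26).

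For the remaining genes the regular groups gave no call with either inhibitor. *CXCL3* was at 3.19 and 2.93 with VX745 and 3.79 and 3.67 with MK25, with intervals of -0.69 to -0.04 and -0.02 to 0.63. *CCL2* was at 5.08 and 4.88 and 5.30 and 5.197, with intervals of -0.54 to 0.01 and -0.27 to 0.28. *CSF2*, with 14 to 17 reads in these libraries, had intervals of -0.55 to 0.42 and -0.27 to 0.70, and *IL6*, with 25 to 44 reads, had -0.88 to 0.46 and -0.54 to 0.80. The intervals of *IL6* were the widest among the 8 genes, although *CSF2* had fewer reads. The regular DMSO libraries of *IL6* were spread, with 66 and 25 reads.

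Whether an inhibitor acted differently in the 2 cultures was tested as an interaction, the effect in ischemic minus the effect in regular culture. For MK25 it passed at an adjusted p under 0.05 for 5 of 8 genes (1 higher and 4 lower), where 24.4% of all genes passed in either direction. The values were -1.86 for *CXCL8* (0.12 standard error, adjusted p = 1.06e-08), -0.89 for *IL11* (0.09 standard error, adjusted p = 2.18e-06), -0.62 for *LIF* (0.09 standard error, adjusted p = 1.68e-04) and -1.25 for *CSF2* (0.33 standard error, adjusted p = 0.01). For *CCL2* it was 0.95 (0.18 standard error, adjusted p = 0.0014), with differences of 0.95 in ischemic and 0.00 in regular culture. The *CSF2* value was -1.03 without ischemic DMSO replicate 1 and no longer passed (adjusted p = 0.074). *CXCL1* (-0.15, interval -0.58 to 0.28) and *CXCL3* (0.09, interval -0.36 to 0.55) did not pass, although *CXCL1* passed without ischemic MK25 replicate 1 (-0.50, adjusted p = 0.0156).

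For VX745 the interaction passed for 3 of 8 genes, all lower, where 11.8% of all genes passed in either direction. These were *CXCL8* (-0.74, adjusted p = 0.00115), *IL11* (-0.55, adjusted p = 9.92e-04) and *CSF2* (-1.05, adjusted p = 0.0463). The *CSF2* call was lost in the voom fit (adjusted p = 0.127), in the fit of the groups compared alone (adjusted p = 0.0616) and in 6 of the fits that left out 1 library, with values from -0.828 to -1.165 and adjusted p up to 0.219. *CCL2* had 0.57 (adjusted p = 0.053), which passed without genes under 1 CPM (adjusted p = 0.0473), in the fit of the groups compared alone (adjusted p = 0.0163) and without regular DMSO replicate 1 (0.67, adjusted p = 0.0454).

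Seen as the response to ischemia within each treatment, the same fits gave 4 calls of 8 with VX745 in both cultures (2 higher and 2 lower, where 9.28% of all genes were higher and 5.21% lower) and 3 of 8 with MK25 (1 higher and 2 lower, where 8.56% were higher and 5.34% lower). *CXCL8* rose by 1.90 (0.08 standard error, adjusted p = 1.91e-12) with VX745, while with MK25 its difference was 0.78 (adjusted p = 2.27e-07), or 1.72-fold. *CSF2* rose by 2.17 and 1.96 (adjusted p = 2.39e-07 and 8.11e-07). *CXCL1* fell by 1.69 and 1.59 and *CCL2* by 1.86 and 1.49. *IL11*, which was higher in ischemic than in regular DMSO cells, was lower in ischemic culture with both compounds, with differences of -0.30 with VX745 (adjusted p = 2.74e-04) and -0.64 with MK25 (adjusted p = 5.39e-08), both under 2-fold. The *LIF* difference was 0.20 with VX745 (adjusted p = 0.014) and -0.60 with MK25 (adjusted p = 3.63e-07), also under 2-fold.

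*CXCL1* and *CXCL3* are paralogs, and reads from stretches they share could be assigned to either. Of the 1125 stretches of 50 bases in the *CXCL1* transcript, 6 occur in *CXCL3* and 60 in *CXCL2*, and none of 100 bases is shared. In experiment 2 the regular libraries held 11.1 to 15.8 *CXCL1* reads per *CXCL3* read and the ischemic libraries 6.48 to 7.29, without overlap and with little difference between DMSO, VX745 and MK25 within the ischemic culture. In experiment 1 the ratio was 10.7 and 12.1 in regular and 12.3 and 14.6 in ischemic libraries. The ischemic fall of *CXCL1* exceeded that of *CXCL3* with DMSO, -1.44 against -0.56, and the difference between these values was not tested.

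**Figure D4:**
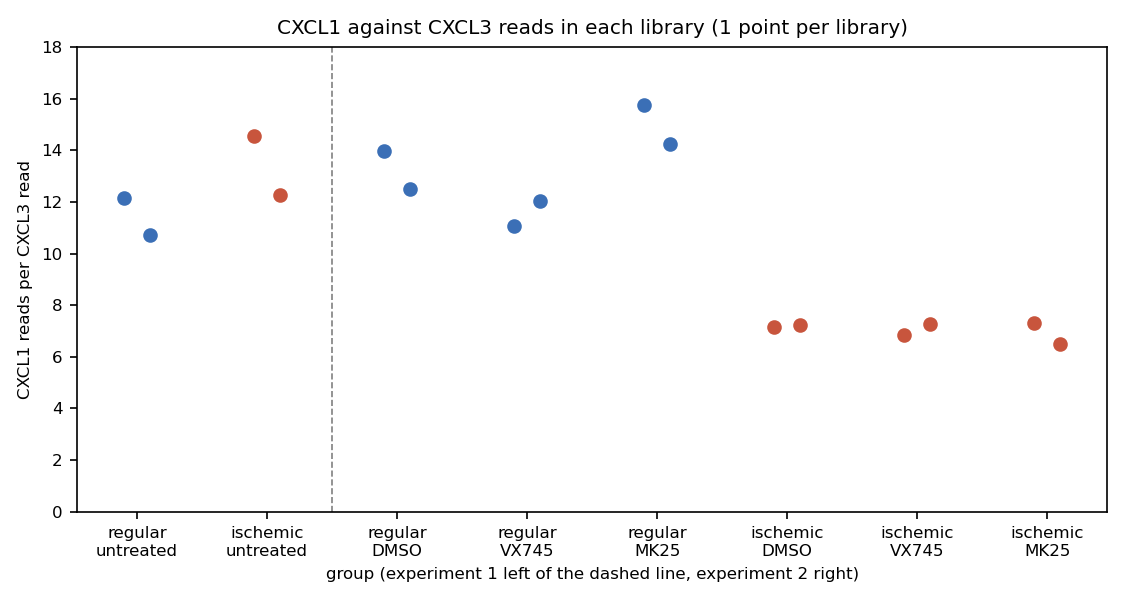
*CXCL1* reads per *CXCL3* read (y axis, from 0) in each library (points, 2 per group) by group (x axis), blue for regular and red for ischemic culture. The 6 ischemic libraries of experiment 2 sat between 6.48 and 7.29, below the 6 regular libraries at 11.1 to 15.8.

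Genes of the same families were followed from lists. Of 22 other chemokine genes, 3 were listed in the tables. *CCL20*, which attracts lymphocytes and dendritic cells, rose by 1.75 in untreated and 1.91 in DMSO cells under ischemia (adjusted p = 2.83e-04 and 8.68e-05), and *CXCL16* rose by 1.496 in untreated cells (adjusted p = 3.71e-06). In ischemic culture *CCL20* fell by 1.21 with MK25 (adjusted p = 0.00926). The membrane-bound chemokine *CX3CL1* rose by 0.73 with VX745 and 0.99 with MK25 (adjusted p = 3.05e-04 and 7.59e-06). Calls were 2 higher and 0 lower in untreated cells, 1 higher in DMSO cells with 0 lower, the same under VX745, and 1 in each direction under MK25, of 3 genes each time. In this order the rules called 11.3%, 9.03%, 4.35% and 7.02% of all genes higher and 9.1%, 8.11%, 0.906% and 2.65% lower. All 3 listed chemokines had an unadjusted p under 0.05 in each comparison, and the voom fit called 2, 1, 2 and 2 of them. The list medians were 1.496, 0.58, 0.39 and 0.45, where those of all genes lay between -0.009 and 0.003.

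Of 12 other gp130 cytokines and colony-stimulating factors, 3 were listed in experiment 1 and 5 in experiment 2. *CSF1*, the macrophage colony-stimulating factor, fell by 1.84 in untreated cells under ischemia (adjusted p = 2.75e-08). It was the 1 call of 3, where 9.1% of all genes were lower and 11.3% higher. With DMSO 0 of 5 were called by limma and by voom, where limma called 9.03% of all genes higher and 8.11% lower. Of the 5, 1 had an unadjusted p under 0.05, and the changes ran from -0.95 to 0.67. In ischemic culture *CLCF1*, a cardiotrophin-like gp130 cytokine, fell by 0.66 with VX745 and 1.08 with MK25 (adjusted p = 1.78e-05 and 3.18e-08), and *CSF1* rose by 0.72 with MK25 (adjusted p = 6.16e-06). Of 5 genes, 1 was lower with VX745, and 1 was higher and 1 lower with MK25. Voom called 1 with VX745 and 3 with MK25, and 2 and 3 had an unadjusted p under 0.05. The largest MK25 difference, 1.58 for *CSF3*, did not pass (adjusted p = 0.0597). It had 40 and 38 reads with MK25 against 10 and 7 with DMSO. Over all genes 4.35% were higher and 0.906% lower with VX745, and 7.02% and 2.65% with MK25. The list medians in the order above were -0.40, 0.045, -0.082 and 0.483. Tested directly in ischemic culture, *CSF3* stood higher with MK25 than with VX745 (4 and 8 reads) by 2.19 (adjusted p = 0.0249). It was the 1 call of 5 in that comparison, where 1.75% of all genes were higher and 2.2% lower.

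Receptors for these ligands were listed for 7 of 14 genes, and *CXCR1*, *CXCR2* and *CCR2* had no row in either table. In untreated cells 3 of 7 were higher and 2 lower under ischemia, beside 11.3% and 9.1% of all genes. In DMSO cells 2 were higher and 2 lower, beside 9.03% and 8.11%. *CSF3R* rose by 2.28 and 2.80 (adjusted p = 7.82e-04 and 1.46e-04). Its regular libraries held 2 and 3 reads in experiment 1, both at the floor, and 2 and 9 with DMSO, and the summed 38 ischemic and 5 regular reads of experiment 1 gave a ratio of 8.21 with a 95% counting interval of 3.23 to 26.7. *OSMR*, the oncostatin M receptor, rose by 1.72 and 1.38 (adjusted p = 6.79e-10 and 2.32e-13). *IL6R* fell by 1.25 and 1.24. *IL11RA* fell by 1.35 in untreated cells (adjusted p = 0.00704) and was at -0.48 with DMSO (adjusted p = 0.146). Its reads in experiment 1 were 27 and 47 in regular and 19 and 7 in ischemic libraries. The chemokine-scavenging receptor *ACKR1* fell by 1.05 with DMSO (adjusted p = 4.22e-04) and was at -0.32 in untreated cells (adjusted p = 0.253). The shared chain *IL6ST* rose by 1.26 in untreated cells and was at 0.67 with DMSO (adjusted p = 7.35e-08, under 2-fold). In ischemic culture VX745 raised 2 of 7, *IL6R* by 1.04 and *ACKR1* by 0.64, beside 4.35% of all genes higher and 0.906% lower. MK25 raised *ACKR1* by 1.04 and lowered *IL6ST*, which fell by 0.70, beside 7.02% of all genes higher and 2.65% lower. The list medians in the order above were -0.319, -0.477, 0.012 and 0.082.

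Of 14 JAK-STAT genes, 12 were listed in experiment 1 and 13 in experiment 2. *JAK3* rose by 1.51 and 1.59 under ischemia in untreated and DMSO cells (adjusted p = 0.0034 and 2.13e-04). It had few reads, 12 and 7 in regular and 31 and 25 in ischemic libraries of experiment 1. With DMSO these were 8 and 12 in regular and 31 and 34 in ischemic libraries. *SOCS3*, the feedback inhibitor induced by STAT3, fell by 2.82 and 1.72 (adjusted p = 6.30e-10 and 7.39e-11). These were the calls in both comparisons, 1 higher and 1 lower. Of all genes 11.3% were higher and 9.1% lower in untreated cells, and 9.03% and 8.11% in DMSO cells. The *STAT3* differences were -0.10 and 0.13. In ischemic culture 0 of 13 were called with VX745 by limma and by voom, where limma called 4.35% of all genes higher and 0.906% lower. Unadjusted p was under 0.05 for 3 of the 13 with VX745, and values ran from -0.26 to 0.22. With MK25 1 was called lower, *SOCS2*, which fell by 0.68 (adjusted p = 7.37e-04), beside 2.65% of all genes lower and 7.02% higher. The list medians in the order above were 0.146, 0.134, -0.054 and 0.026.

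Cytokines that induce these genes, and their receptors, were listed for 8 of 13, and *TNF* had no row in either table. Under ischemia 3 of 8 rose and 1 fell in both experiments, beside 11.3% and 9.03% of all genes called higher and 9.1% and 8.11% lower. *IL1A* rose by 3.55 and 2.32, *IL1B* by 2.07 and 1.69 and the receptor chain *IL1RAP* by 2.33 and 1.61, in untreated and DMSO cells, and *TLR4* fell by 1.40 and 1.77. The largest adjusted p of these rises was 1.14e-06, for *IL1B* in untreated cells (31 and 39 regular and 157 and 126 ischemic reads). In ischemic culture VX745 lowered 1 of 8, *IL1A*, which fell by 0.94 (adjusted p = 5.55e-05), beside 0.906% of all genes lower and 4.35% higher. Unadjusted p was under 0.05 for 6 of the 8. *IL1B* (-0.55), *IL1R1* (-0.55) and *IL1RAP* (-0.42) stayed under 1.5-fold with VX745 (adjusted p = 7.27e-04, 0.00113 and 7.46e-04). MK25 lowered 4 of 8, beside 2.65% of all genes lower and 7.02% higher. *IL1A* fell by 1.07, *IL1B* by 1.12, *IL1R1* by 0.70 and *IL1RAP* by 0.69. In regular culture VX745 lowered 1 of 8, *IL1A* by 0.74 (adjusted p = 0.0197), and voom called 0. The rule called 0.0357% of all genes lower and 0.0642% higher there. MK25 lowered 2 there, *IL1A* by 0.73 and *IL1B* by 0.64, beside 0.606% of all genes lower and 1.88% higher. The *IL1A* interactions with culture were -0.20 and -0.34 and did not pass (adjusted p = 0.52 and 0.18). The MK25 interactions of *IL1B*, *IL1R1* and *IL1RAP* passed (-0.48, -0.74 and -0.73). Tested directly in ischemic culture, MK25 against VX745 gave 0 calls of 8 by limma and voom, with 4 at an unadjusted p under 0.05. Limma called 1.75% of all genes higher and 2.2% lower in that comparison. The medians of this list were 0.274 in untreated and 0.065 in DMSO cells under ischemia. In ischemic culture they were -0.31 with VX745 and -0.525 with MK25.

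All 29 listed regulators of transcription and mRNA decay had values. Under ischemia 13 rose and 0 fell in each experiment, where 11.3% of all genes were called higher and 9.1% lower in untreated and 9.03% and 8.11% in DMSO cells. The median changes were 0.67 and 0.73. *EPAS1*, encoding HIF-2α, rose by 3.59 and 2.44, the phosphatase gene *DUSP1*, which restrains p38, by 3.50 and 3.87, and *TNFAIP3*, an NF-kB target and inhibitor, by 3.25 and 3.19. *DDIT3*, encoding CHOP, rose by 2.12 and 1.84. The 0 that fell compares with 28 and 26 of 29 at an unadjusted p under 0.05 in either direction, and voom called 12 and 13. In ischemic culture VX745 raised *JUN* by 0.79 and lowered 2 genes, beside 4.35% of all genes higher and 0.906% lower. *DDIT3* fell by 0.90 and *NFKBIZ* by 0.71. MK25 raised 5, led by *FOS* at 1.30, *TNFAIP3* at 0.90 and the RNase gene *ZC3H12A* at 0.84, beside 7.02% of all genes higher. It lowered 2, as *ATF3* fell by 0.98 and *JUN* by 0.59, beside 2.65% of all genes lower. The list medians were -0.203 with VX745 and -0.107 with MK25. *JUN* differed between the inhibitors, by -1.38 for MK25 against VX745 (adjusted p = 4.46e-09). The AU-rich element binding protein gene *ZFP36* rose by 1.37 and 1.49 under ischemia and was at -0.11 with VX745 and -0.46 with MK25 (adjusted p = 0.477 and 0.00377). The mRNAs of the inhibited kinases were at 0.39 with VX745 (*MAPK14*) and -0.14 with MK25 (*MAPKAPK2*), both under 1.5-fold. In regular culture VX745 moved 0 of 29 by limma and voom, with 7 at an unadjusted p under 0.05. MK25 raised 3 there, *EPAS1* by 0.92 and *ZC3H12A* and *TNFAIP3* by 0.62. It lowered 2, *ZFP36* by 0.71 and *JUN* by 0.68. Limma called 0.0642% of all genes higher and 0.0357% lower with VX745 there, and 1.88% and 0.606% with MK25. The MK25 interactions were 0.09 for *JUN*, 0.225 for *ZC3H12A* and 0.28 for *TNFAIP3*, and the last passed (adjusted p = 0.0355).

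**Figure D5:**
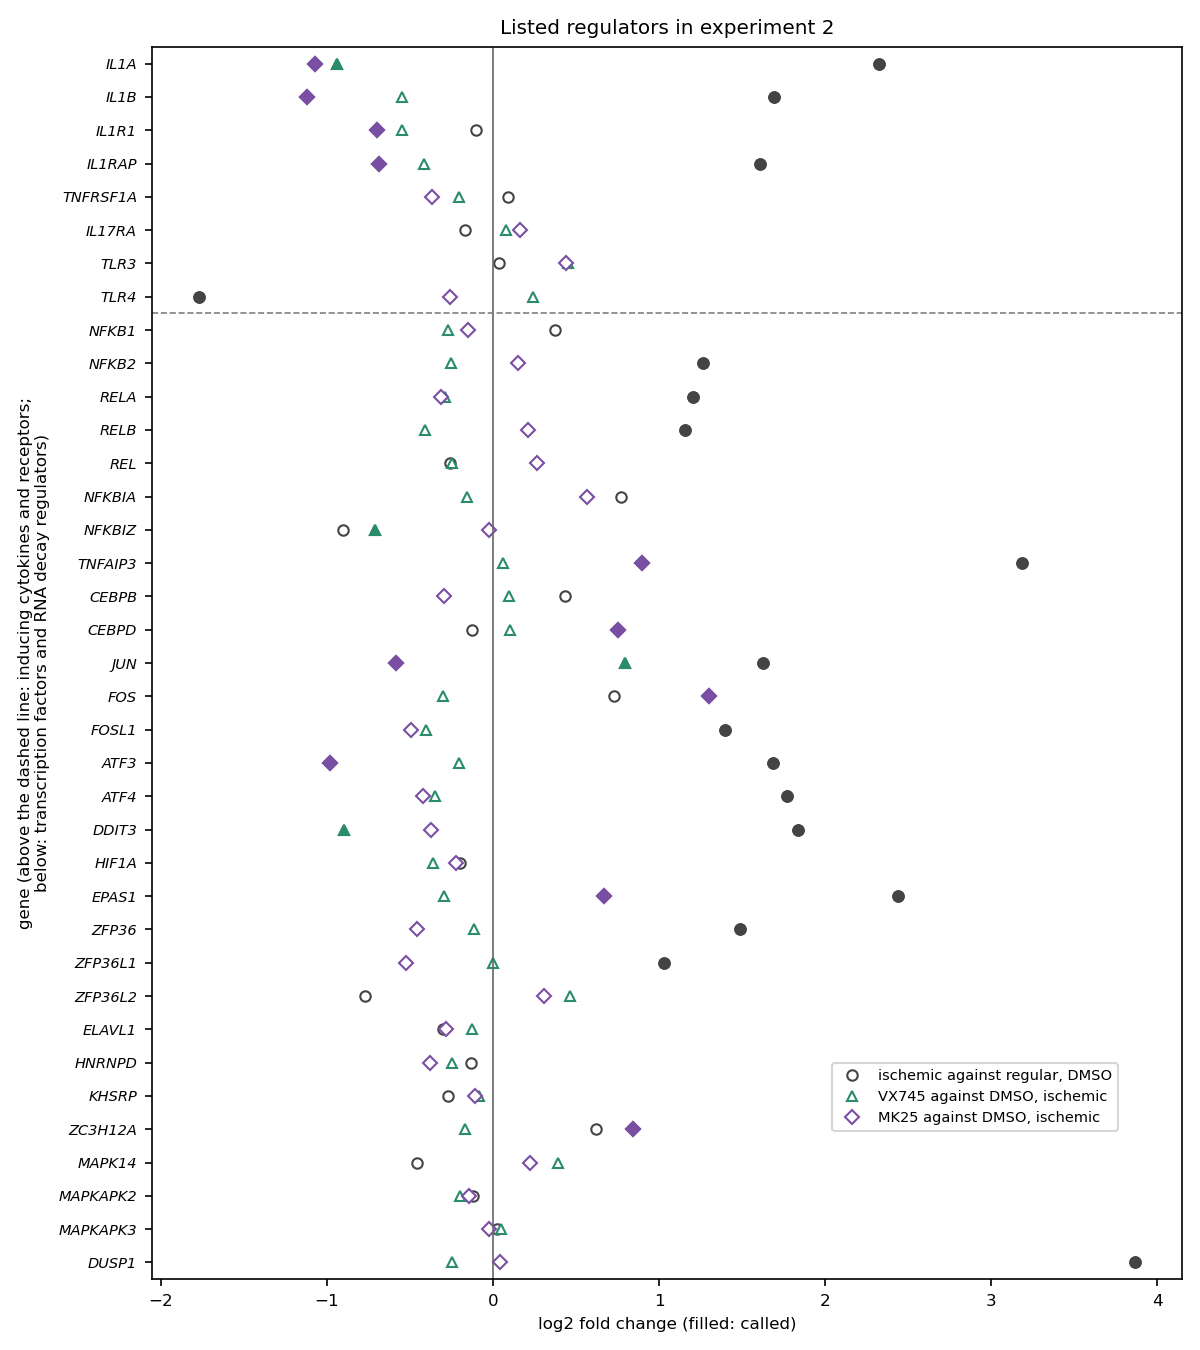
Log2 fold change (x axis) of the listed inducing cytokines and receptors (above the dashed line) and regulators of transcription and mRNA decay (below) on the y axis, for ischemic against regular culture with DMSO (circles), VX745 (triangles) and MK25 (diamonds) against DMSO in ischemic culture, filled where both thresholds were passed. *DUSP1* stood at 3.87 in the ischemia comparison, and *JUN* at 0.79 with VX745 and -0.59 with MK25.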

How the data were processed

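RNA of 16 LN229 libraries was prepared with a SMART-Seq mRNA kit and Nextera XT and sequenced as paired ends of 100 cycles, aligned with HISAT2 to GRCh38 and normalized with edgeR by the authors, whose tables hold log2 normalized CPM per Entrez gene. Versions, the counter and the low-count filter were not given in the sources used here. The deposited log2 values were used as they stand. Whole reads were recovered from them (100% within 0.05 of a whole number), with 20122017 to 37562668 reads per library. Symbols were matched for 99.4% and 99.31% of identifiers.

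Each experiment was fitted separately in limma 3.58.1 (R 4.3.3) with a mean per group and a variance trend over all genes, and p-values were adjusted by Benjamini-Hochberg over all genes of the table. Calls needed an adjusted p below 0.05 together with a change of 2-fold or more (ischemia) or 1.5-fold or more (inhibitors), with no fold threshold for interactions. In all 11 comparisons were made. The code was tested on simulated data. The 9 genes, the other gene lists and the rule for named genes were chosen with earlier results of these data known. All members with a row were named, and from each list and comparison up to 4 called genes with the largest changes, with the 3 genes closest in profile to each member, together with a few genes of known role (*STAT3*, *ZFP36*, *JUN*, *MAPK14* and *MAPKAPK2*) picked after their values were seen.

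Alternatives were a fit without the trend, other fold thresholds, median centring, quantile normalization, a minimum mean of 1 CPM, a replicate block, voom on the recovered reads, the groups compared alone and leaving out each library. The voom fit used the library sizes implied by the deposited values in place of the planned TMM factors. Figures were drawn with matplotlib 3.10.9. Promoters came from RefSeq GRCh38.p14, and 3′ UTRs and gene positions from the GENCODE annotation of GRCh38.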

Additional observations from a re-analysis of the deposited data

Results flagged for a closer look

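The effect of an inhibitor differed between ischemic and regular culture, by a test of the interaction across all genes in limma, for 8 pairs of gene and inhibitor, where 11.8% of all genes passed this test for VX745 and 24.4% for MK25. For VX745 the effect in ischemic minus that in regular culture was -0.739 for *CXCL8*, -0.548 for *IL11* and -1.046 for *CSF2* on the log2 scale. The *CSF2* difference no longer passed with voom (adjusted p = 0.127), with the groups compared alone (adjusted p = 0.0616), with a replicate block (adjusted p = 0.0541) and in 6 fits that left out 1 library (adjusted p up to 0.219). For MK25 it was -1.856 for *CXCL8*, -0.885 for *IL11*, -0.619 for *LIF*, -1.25 for *CSF2* and 0.949 for *CCL2*, where *CSF2* no longer passed without ischemic DMSO replicate 1 (adjusted p = 0.074). The *CXCL8* effect of MK25 was of opposite sign in the cultures, with every MK25 library above both DMSO libraries in regular culture and below both in ischemic culture.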

How the results depend on the processing

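Of 1111 recomputed differences of single genes under the alternatives, 1056 kept their side of the thresholds, 35 gained a call and 20 lost one. The sign changed in 27, of which 0 were called in either fit and 1 had an adjusted p below 0.05 (*LIF* for ischemia with DMSO after quantile normalization). Without a fold threshold, the genes called were 5 in place of 3 for ischemia in untreated cells, 3 in place of 1 for each inhibitor in regular culture, 7 in place of 4 and 7 in place of 3 for ischemia with VX745 and MK25, and 5 in place of 3 for MK25 against VX745. Without a variance trend 0 genes were called for VX745 in regular culture. Leaving out 1 library gave 1 to 2 calls for VX745 and 0 to 2 for MK25 in regular culture. Other counts stayed within 1.5 times. To see whether same-numbered libraries belonged together, the difference between replicates 1 and 2 in each group was correlated between groups across genes. These correlations ran from -0.266 to 0.325 in experiment 2 (4 of 15 pairs of groups over 0.1). The value was 0.271 in experiment 1 (1 pair). The replicate numbers were not taken as a pairing. With a replicate block the counts of calls were 3, 4, 5 and 5 for ischemia in untreated and DMSO cells and for VX745 and MK25 in ischemic culture, 1 and 1 in regular culture, 4 and 3 for ischemia with VX745 and MK25, 3 and 5 for the interactions and 3 for MK25 against VX745. The block moved *CCL2* past the threshold of the VX745 interaction (adjusted p = 0.0443) and *CSF2* out of it (adjusted p = 0.0541). With 2 libraries a group, and *CSF2* and *IL6* at few reads, small changes of these genes were not detectable.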

Other observations

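The genes whose profile lay closest to a member over the 12 libraries of experiment 2 were found by the root mean square difference of centred log2 values among 13220 genes. They were *GPRC5A* (0.307), *LOXL2-AS1* (0.334) and *XBP1* (0.358) for *CXCL8*, and *RNF145* (0.325), *SWSAP1* (0.33) and *TAMALIN* (0.342) for *CXCL1*. For *CXCL3* they were *TFRC* (0.221), *FASN* (0.234) and *KYNU* (0.269), and for *CCL2* they were *ATOH8* (0.167), *HEXIM1* (0.204) and *ID1* (0.204). Among the cytokines, *IL6* lay closest to *FNTB* (0.236), *TNFSF9* (0.245) and *ZNF583* (0.247), and *IL11* to *FOXC1* (0.105), *CLCF1* (0.118) and *KRT18* (0.167). *LIF* lay closest to *PDP1* (0.152), *SLC38A2* (0.16) and *GART* (0.168), and *CSF2* to *MXD1* (0.186), *MYADM* (0.216) and *ASNS* (0.268). The members differed in their own spread, the root mean square of their centred values. It was 0.272 for *LIF*, 0.368 for *IL6*, 1.058 for *CXCL8* and 1.283 for *CSF2*. Distances of different members are therefore not comparable. The distances are a description and were not tested.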
